A study of Mus musculus with 9 samples.

Results

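Claudins are the membrane proteins that form the strands of the tight junction, the seal between neighbouring epithelial or endothelial cells. The genes described here are Cldn1, Cldn2, Cldn3, Cldn4, Cldn5, Cldn7, Cldn8, Cldn10, Cldn16 and Cldn19, which were taken from the mRNA values by their official symbols from a list of 10. They are 10 of the 33 genes with a claudin symbol and of 21950 mRNA genes in all, and all 10 were found. RNA-seq of the renal cortex was compared between 3 control, 3 dbdb and 3 dbR mice, with 1 library per mouse. All were male C57BL/KsJ littermates of the line BKS.Cg-Dock7m+/+Leprdb/Nju at 15 weeks of age. Control mice (db/m) were heterozygous for the db mutation of the leptin receptor and were not diabetic. The dbdb mice were homozygous for db, had type 2 diabetes and received vehicle. The dbR mice had the same genotype and received rosiglitazone, which activates the nuclear receptor PPARγ, by gavage. The dose was 20 mg/kg/day, given for 8 weeks and begun when the mice were 7 weeks old. Every group thus carried the db mutation on at least 1 allele, obesity and diabetes came together in the homozygous groups, and no db/m mice received the drug.

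Each segment of the nephron expresses its own set of claudins, and this set decides which ions pass between the cells. In the proximal tubule claudin 2 forms a pore for cations and water, and claudin 10a a pore for anions. In the thick ascending limb claudin 10b passes sodium, while claudin 16 and claudin 19 are needed for the uptake of magnesium and calcium. Claudins 3, 4, 7 and 8 line the distal nephron and the collecting duct, where claudin 4 and claudin 8 form a path for chloride. Claudin 1 is found in the epithelium of Bowman's capsule and in parts of the tubule, and claudin 5 seals endothelial cells.

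Values are FPKM (fragments per kilobase of transcript, scaled to the mapped fragments of a library), added up over all mRNA transcripts of a gene. The low values showed relative depths between 0.914 and 1.13 of control replicate 1, or roughly 24.2 M to 29.6 M fragments. Of the 10 genes Cldn3, the one with the lowest mean, rested on an estimated 51.9 fragments in its lowest library, a counting error of 13.9%, against 0.884% for Cldn2. These errors cover counting alone. Lepr, the gene of the db mutation, had FPKM of 1.19, 1.05 and 1.23 in control, 0.652, 0.331 and 0.304 in dbdb and 0.512, 0.390 and 0.335 in dbR libraries, without overlap between the control and the homozygous groups. The defining markers of the cortex were present in every library, for example Slc34a1 of the proximal tubule at 1146 to 1641 FPKM and Slc12a1 of the thick ascending limb at 81.0 to 146 FPKM. The 5 urothelial markers, which would mark pieces of the renal pelvis, summed to 3.36 FPKM in control replicate 1 and to at most 1.09 FPKM elsewhere. The 6 leukocyte markers summed to 60.9 to 198 FPKM, apart from 876 FPKM in dbdb replicate 3. Cd74 alone gave 872 FPKM of that sum, and the other 5, among them Ptprc at 1.97 FPKM, lay below each control value in that library.

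Cldn2 and Cldn10 held most of the FPKM of the 10 genes. Per length and among these 10, Cldn2 ranked highest in each of the 9 libraries, followed by Cldn10, Cldn8 and Cldn1 in the same order in each of them. The mean FPKM over the 9 libraries was 180 for Cldn2, 103 for Cldn10, 17.3 for Cldn8 and 10.7 for Cldn1. The remaining 6 genes had means between 2.31 FPKM for Cldn3 and 5.57 FPKM for Cldn7. These 6 took ranks 5 to 10 in an order that differed between the groups. Cldn19 exceeded Cldn7 in each control library, and Cldn7 exceeded Cldn19 in each dbdb library. Among the 3 control libraries the ranges of neighbours in the order of the group means (Cldn19, Cldn7, Cldn16, Cldn5, Cldn3 and Cldn4) overlapped. Every one of the 10 genes had a mean of at least 1 FPKM. Cldn12, a claudin outside these 10, had 28.5 to 38.9 FPKM and exceeded Cldn8 in every library.

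**Figure D1:**
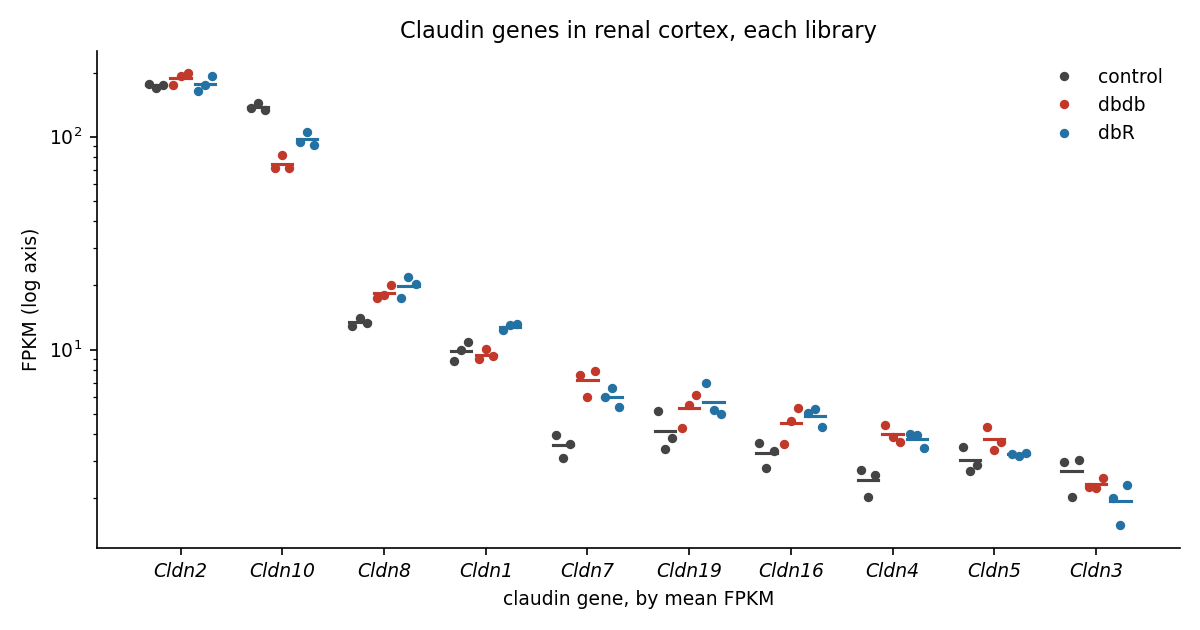
FPKM of the 10 claudin genes (log axis) in each of the 9 libraries, with 1 point per library and a line at the mean of each group. Cldn2 and Cldn10 lie above all others, the dbdb points of Cldn10 lie below its control points, and those of Cldn4, Cldn7 and Cldn8 lie above theirs.

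The weight of Cldn2 against Cldn10 differed between the groups. Cldn2 made up 48.0% to 49.8% of the summed FPKM of the 10 genes in control, 58.5% to 60.5% in dbdb and 51.3% to 56.5% in dbR libraries. Cldn10 made up 37.9% to 40.7%, 21.6% to 25% and 26.8% to 31.0%, respectively. The ranges of the groups did not overlap for either gene. Both are shares of the same sum, so a lower Cldn10 by itself raises the share of Cldn2. The FPKM of Cldn2 itself overlapped between the groups (below). The ratio of Cldn2 to Cldn10 was 1.18 to 1.31 in control, 2.35 to 2.80 in dbdb and 1.66 to 2.1 in dbR libraries. The summed level of the 10 genes was 353 to 357 FPKM in control, 299 to 329 FPKM in dbdb and 316 to 341 FPKM in dbR libraries.

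**Figure D2:**
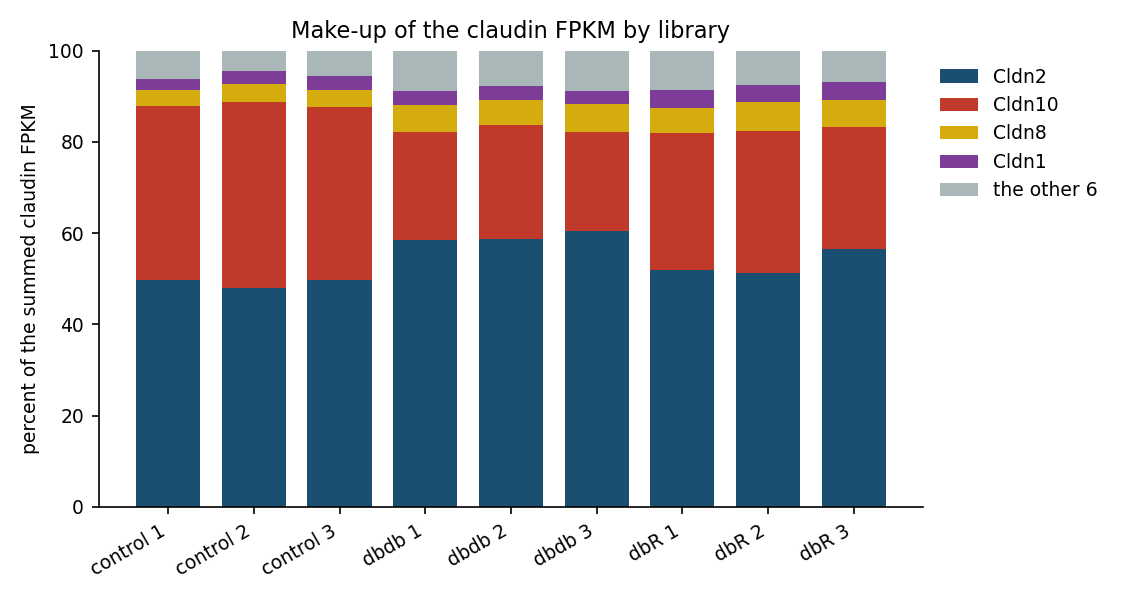
Share of the summed FPKM of the 10 claudin genes (percent) taken by Cldn2, Cldn10, Cldn8, Cldn1 and the other 6 genes, with 1 bar per library. The Cldn10 part is 37.9% to 40.7% in control bars and 21.6% to 25% in dbdb bars.

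In dbdb vs. control, the comparison that asks how the diabetic cortex differs, Cldn7, Cldn4 and Cldn8 rose and Cldn10 fell. Genes were called at a Benjamini-Hochberg adjusted p under 0.05, over the 14537 genes whose mean FPKM reached 0.1, in a limma fit of log2(FPKM + 0.1). All 10 claudins passed that filter. Thus 4 of 10 claudins were called, while 26.4% of all genes tested were called. The groups did not overlap in the same 4 of 10 claudins and in 42.4% of all genes tested. The median log2 fold change was 0.34 over the 10 claudins and -0.00 over all genes. Of the calls over all genes, 49.5% were higher in dbdb, and with mitochondrial genes left out and the rest scaled to the same sum this share was 78.3% and the median of all genes moved by 0.15. Under that scaling 7 claudins were called, the additional ones being Cldn2 (log2 fold change 0.27), Cldn5 (0.48) and Cldn16 (0.61). The 4 claudins named above kept their direction and their call under each of 21 settings, which include leaving out each library.

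Cldn10 lies at chr14:118787908-118875489 on the plus strand of GRCm38 and has a pair of alternative starts. Transcripts that start at the upstream exon encode claudin 10a, and the transcript that starts at the downstream exon encodes claudin 10b. Windows of 250 bases before the RefSeq starts were examined, and these starts are not always those of the transcripts in the files. Sequence outside annotated exons of the gene is shown for both Cldn10 starts, because the calls of their transcripts differed in dbdb vs. control. It is also shown for the downstream Cldn7 start and the Cldn2 start. Cldn7 showed the largest rise among the 10 genes and Cldn2 the highest level. The sequences are from RefSeq, build GRCm38.p6, plus strand, at chr14:118787621-118787870, chr14:118854700-118854731, chr11:69965367-69965395 and chrX:139800558-139800807, in this order. The upstream Cldn10 window ends 37 bases short of the start of ENSMUST00000047761 and the Cldn2 window 20 bases short of that of ENSMUST00000054889. Of the downstream Cldn10 window 218 bases lie inside ENSMUST00000100314, so 32 are shown. Of the downstream Cldn7 window 25 bases lie inside ENSMUST00000018713 and 196 in an exon of ENSMUST00000060651, so 29 are shown. Capitals mark matches to short motifs, searched on both strands. The TATA box was searched as TATAAA. A partial site of the kidney factor HNF1 was searched as GTTAAT. The core of the Grainyhead-like site was searched as AACCGG. A single arm of a nuclear receptor site was searched as AGGTCA.
Cldn10, upstream start: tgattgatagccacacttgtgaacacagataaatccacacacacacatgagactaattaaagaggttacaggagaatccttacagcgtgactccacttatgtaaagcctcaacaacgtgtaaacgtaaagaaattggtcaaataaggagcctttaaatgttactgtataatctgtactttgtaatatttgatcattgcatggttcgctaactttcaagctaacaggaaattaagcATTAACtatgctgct
Cldn10, downstream start: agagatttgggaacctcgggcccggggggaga
Cldn7, downstream start: gtgagtgtcccttcagtgacgtcAGGTCA
Cldn2: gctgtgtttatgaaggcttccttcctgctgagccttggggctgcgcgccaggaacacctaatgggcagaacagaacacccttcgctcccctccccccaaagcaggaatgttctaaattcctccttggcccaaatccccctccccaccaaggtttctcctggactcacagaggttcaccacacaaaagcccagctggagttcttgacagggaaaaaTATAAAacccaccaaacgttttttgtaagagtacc

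The windows differed in base composition. The upstream Cldn10 window held 36% G and C, below the lower quartile of 45.2% over the 32817 windows of this kind, and 4 CpG. The downstream window, most of it inside the transcript, held 72.4% G and C and 22 CpG, above the upper quartiles of 61.2% and 16 CpG. GTTAAT was found on the minus strand 52 bases before the start of ENSMUST00000047761, and in 6.44% of all windows. AACCGG was found 38 bases before the start of ENSMUST00000018713, outside the bases shown, and in 5.62% of all windows, and AGGTCA 6 bases before that start and in 14.0% of all windows. TATAAA was found 55 bases before the start of ENSMUST00000054889 and in 12.4% of all windows. Counted from the RefSeq starts, these matches lay 15 bases before for GTTAAT, 63 for AACCGG, 31 for AGGTCA and 35 for TATAAA. In the other windows AGGTCA was found for Cldn4 and the upstream Cldn7 start and GTTAAT for Cldn1, and the letters of none of these motifs were found for Cldn3, Cldn5, Cldn16 and Cldn19. The PPAR type of site, a direct repeat of AGGTCA spaced by a single base (AGGTCANAGGTCA), was in none of the 12 claudin windows and in 0.0335% of all windows. Cldn8 was not analysed here in this respect.

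Cldn10 had FPKM of 136, 144 and 134 in control, 71.2, 82.2 and 70.9 in dbdb and 94.6, 106 and 91.5 in dbR libraries. Each dbdb value lay below each control value, and the dbR values lay between them without overlap with either group. The group means were 138 ± 5.34, 74.8 ± 6.42 and 97.3 ± 7.49 FPKM (SD, n = 3 each). Cldn10 fell by 0.89 on the log2 scale in dbdb (SE 0.077, limma adjusted p = 5.90e-05), to 0.541 of the control level. In these bulk samples, fewer cells of a type and less RNA per cell cannot be told apart.

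Of the Cldn10 transcripts, the one from the upstream start was called lower and the one from the downstream start was not. ENSMUST00000047761 (Cldn10a, chr14:118787908-118874524) had FPKM of 128, 138 and 127 in control, 65.5, 77.2 and 65.0 in dbdb and 88.7, 98.2 and 85.4 in dbR libraries. It held 94.9% ± 0.647 (SD, n = 3) of the Cldn10 FPKM in control and 92.5% ± 1.20 in dbdb. ENSMUST00000100314 (Cldn10b, chr14:118854732-118875489) had FPKM of 5.57, 5.77 and 5.69 in control, 4.88, 5.01 and 4.94 in dbdb and 5.55, 5.69 and 5.71 in dbR libraries. The dbdb values of this transcript too lay below each control value, by a far smaller step. A limma fit over 29362 transcripts gave a log2 fold change of -0.92 for Cldn10a (SE 0.082, adjusted p = 5.62e-04), which was called, and of -0.20 for Cldn10b (SE 0.067, adjusted p = 0.114), which was not. Another upstream transcript, ENSMUST00000071546, had a mean of only 0.945 FPKM and was not called.

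The balance of the forms was compared within each library, where depth cancels. The ratio of Cldn10a to Cldn10b was 23.1, 23.9 and 22.3 in control, 13.4, 15.4 and 13.2 in dbdb and 16.0, 17.3 and 15.0 in dbR libraries. The dbdb ratios did not overlap with the control ratios. The log2 ratio differed by -0.72 between dbdb and control libraries, with a two-sided exact permutation p of 0.1, the smallest that 3 against 3 libraries allow. Since Cldn10a and Cldn10b share most exons, these values rest on the division of shared fragments by Cufflinks.

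**Figure D3:**
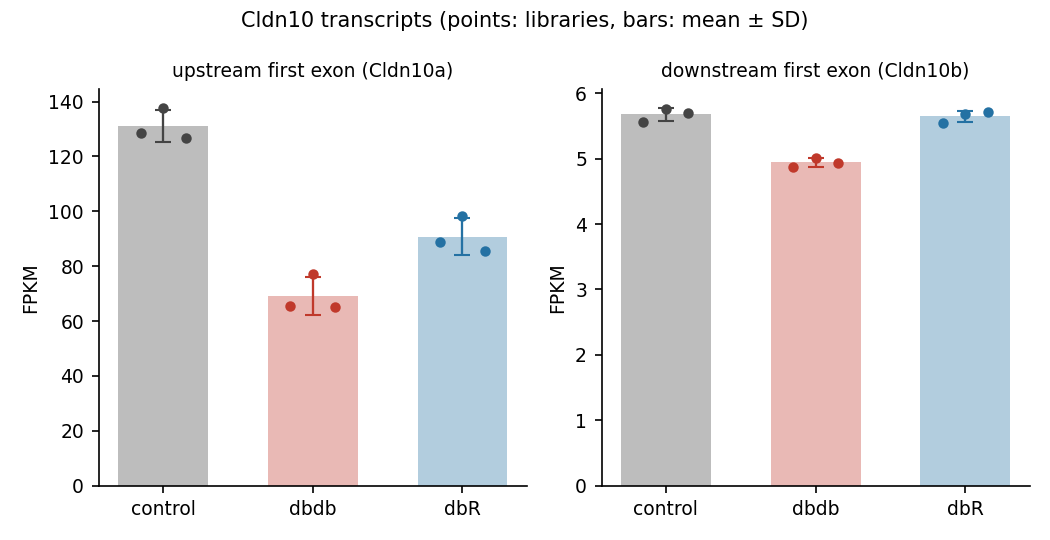
FPKM of the Cldn10 transcripts from the upstream exon (Cldn10a, left) and from the downstream exon (Cldn10b, right), with 1 point per library, bars at the group mean, error bars of 1 SD (n = 3) and axes from 0. Cldn10a is 131 FPKM in control, 69.2 in dbdb and 90.8 in dbR on average, and Cldn10b is 5.68, 4.94 and 5.65.

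Cldn2 (chrX:139800828-139811386, plus strand), the other major claudin, had FPKM of 177, 170 and 176 in control, 175, 193 and 199 in dbdb and 164, 175 and 193 in dbR libraries. The groups overlapped. Between dbdb and control its log2 fold change was 0.11 (SE 0.073, limma adjusted p = 0.286). Of the pair of highest claudins, Cldn10 was thus called lower and Cldn2 was not called.

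Among the claudins of the distal nephron, Cldn7 showed the largest change. Cldn7 (chr11:69964779-69967885, plus strand) had FPKM of 3.98, 3.08 and 3.61 in control, 7.62, 5.99 and 7.91 in dbdb and 5.99, 6.58 and 5.39 in dbR libraries. Every value of the homozygous mice lay above every control value. It rose 1.99-fold in dbdb (log2 fold change 0.99, SE 0.13, limma adjusted p = 6.15e-04). Of its transcripts, ENSMUST00000018713, which held 69.8% or more of the gene's FPKM in each library, had a log2 fold change of 0.91 and was called (adjusted p = 0.0351). This transcript call was lost with the replicate number as a block (adjusted p = 0.0599), and without control replicate 2 (0.0759) or 3 (0.0658), without dbdb replicate 1 (0.0955), 2 (0.0675) or 3 (0.10), or without dbR replicate 2 (0.0503). ENSMUST00000108597 had values from near 0 to 1.63 FPKM and was not called (log2 fold change 2.34, adjusted p = 0.156).

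Cldn4 (chr5:134945119-134946934, minus strand), which forms chloride paths with claudin 8, had FPKM of 2.73, 2.03 and 2.57 in control, 4.43, 3.88 and 3.66 in dbdb and 4.0, 3.96 and 3.44 in dbR libraries. Cldn8 (chr16:88560828-88563183, minus strand) had FPKM of 12.9, 14.1 and 13.4 in control, 17.4, 18.0 and 20.0 in dbdb and 17.5, 21.8 and 20.2 in dbR libraries. For both genes all values of the homozygous mice exceeded all control values. Cldn4 rose 1.61-fold in dbdb (log2 fold change 0.69, SE 0.13, limma adjusted p = 0.00378), and Cldn8 rose 1.37-fold (log2 fold change 0.45, SE 0.090, adjusted p = 0.00535).

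Cldn3 (chr5:134986214-134987472), a sealing claudin of the same segments, had FPKM of 2.97, 2.03 and 3.02 in control, 2.25, 2.23 and 2.49 in dbdb and 2.01, 1.49 and 2.31 in dbR libraries. The groups overlapped, with a log2 fold change of -0.17 between dbdb and control (SE 0.18, limma adjusted p = 0.523). It had the lowest mean level and the widest counting error of the 10 genes.

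The claudins of the thick ascending limb, Cldn16 and Cldn19, were higher on average in dbdb than in control libraries but were not called. Cldn16 (chr16:26463135-26482765) had FPKM of 3.65, 2.77 and 3.33 in control, 3.62, 4.64 and 5.31 in dbdb and 5.02, 5.24 and 4.32 in dbR libraries. Cldn19 (chr4:119255414-119262438) had FPKM of 5.14, 3.42 and 3.84 in control, 4.30, 5.46 and 6.09 in dbdb and 6.96, 5.18 and 4.95 in dbR libraries. In both genes a single dbdb library overlapped with the control values, replicate 1. Between dbdb and control the log2 fold change was 0.46 (SE 0.15, limma adjusted p = 0.0508) for Cldn16 and 0.35 (SE 0.18, adjusted p = 0.187) for Cldn19. Cldn16 crossed the threshold when control replicate 1 (adjusted p = 0.0482) or dbdb replicate 1 (adjusted p = 0.0157) was left out. It also did so with a minimum mean of 1 FPKM and with mitochondrial genes left out.

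Cldn1 (chr16:26356642-26371841) had FPKM of 8.81, 9.95 and 10.8 in control, 9.01, 10 and 9.34 in dbdb and 12.3, 13.0 and 13.2 in dbR libraries. Control and dbdb values overlapped (log2 fold change -0.05, SE 0.084, limma adjusted p = 0.668), while each dbR value exceeded each value of both other groups. Cldn5 (chr16:18776847-18778262), the endothelial claudin, had FPKM of 3.49, 2.69 and 2.88 in control, 4.35, 3.38 and 3.69 in dbdb and 3.22, 3.16 and 3.27 in dbR libraries. Only dbdb replicate 2 fell within the control range of Cldn5, and between dbdb and control its log2 fold change was 0.32 (SE 0.12, adjusted p = 0.0776). Without control replicate 1 it was 0.43 (adjusted p = 0.0347).

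Markers of the segments moved in the same libraries, in a comparison where 26.4% of all genes were called. In dbdb vs. control, 5 of 8 thick ascending limb markers rose and none fell. Their summed level was 654 to 792 FPKM in control libraries and 707, 714 and 1011 FPKM in dbdb replicates 1, 2 and 3. Of the 8 principal cell markers of the collecting duct 5 rose, among them Aqp2 (log2 fold change 1.34) and Scnn1g (1.02), while Aqp4 fell by 1.54 on the log2 scale, and their summed level went from 142 to 167 FPKM in control to 203 to 297 FPKM in dbdb. Of the neighbouring segments, 5 of 6 markers of the distal convoluted tubule rose (summed level 436 to 487 FPKM in control, 758 to 911 FPKM in dbdb), and so did 7 of 7 markers of intercalated cells (70.9 to 77.1 FPKM and 116 to 138 FPKM). Of the 10 proximal tubule markers Slc5a12 and Slc5a2 rose and Slc27a2 fell. Their summed level was 5461 to 5565 FPKM in control libraries and 5465, 5688 and 4763 FPKM in dbdb replicates 1, 2 and 3. Of the 10 endothelial markers 4 fell, Pecam1, Cdh5, Kdr and Emcn, and the summed level was 157 to 172 FPKM in control and 129 to 139 FPKM in dbdb. Also 3 of 6 podocyte markers rose, 4 of 6 leukocyte markers fell, and none of the 3 urothelial and 2 adipocyte markers that passed the filter was called. The part of these shifts in the claudin results was not tested.

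The level of each claudin relative to the markers of its segment was therefore also computed in each library, as its log2 value minus the mean log2 value of the markers. The exact permutation tests of these differences are two-sided and cannot go below p = 0.1 with 3 against 3 libraries, so none could pass the threshold and no adjustment was made. Relative to thick ascending limb markers, Cldn16 and Cldn19 differed between dbdb and control by 0.09 (exact p = 0.5) and -0.01 (exact p = 0.7). Relative to principal cell markers, Cldn8 differed by 0.02 (exact p = 1), Cldn4 by 0.26 and Cldn7 by 0.56, the last 2 without overlap (exact p = 0.1 each). Cldn3 differed by -0.61 relative to the same markers, without overlap (exact p = 0.1). These principal cell values rest on how markers are averaged. With the median of the marker levels in each library they were 0.51 for Cldn8, 0.74 for Cldn4, 1.04 for Cldn7 and -0.12 for Cldn3. The median of the markers' own log2 fold changes, in contrast, was 0.80, above the fold changes of Cldn8 (0.45) and Cldn4 (0.69) and below that of Cldn7 (0.99). With the median of the thick ascending limb markers the Cldn16 value turned to -0.05. Relative to endothelial markers, Cldn5 was higher by 0.52 in dbdb than in control libraries, without overlap (exact p = 0.1).

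Cldn10 was also set against the markers of both segments that use it. Relative to thick ascending limb markers it differed by -1.25 in dbdb vs. control, without overlap (p = 0.1, exact permutation test). Since Cldn10a, the proximal tubule form, held most of the Cldn10 FPKM, this value mainly sets RNA of that form against markers of another segment. A comparison chosen after seeing the data set the gene against proximal tubule markers, which gave -0.94, the Cldn10a transcript against the same markers, which gave -0.98, and the Cldn10b transcript against thick ascending limb markers, which gave -0.56. Each of these was without overlap between the groups (exact p = 0.1 each). The log2 fold change of the Cldn10b transcript itself was -0.20 and was not called, while the median of the thick ascending limb markers was 0.35. Cldn2 differed by 0.06 relative to proximal tubule markers (exact p = 0.9), and by -0.12 with the median of the markers (exact p = 0.4).

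**Figure D4:**
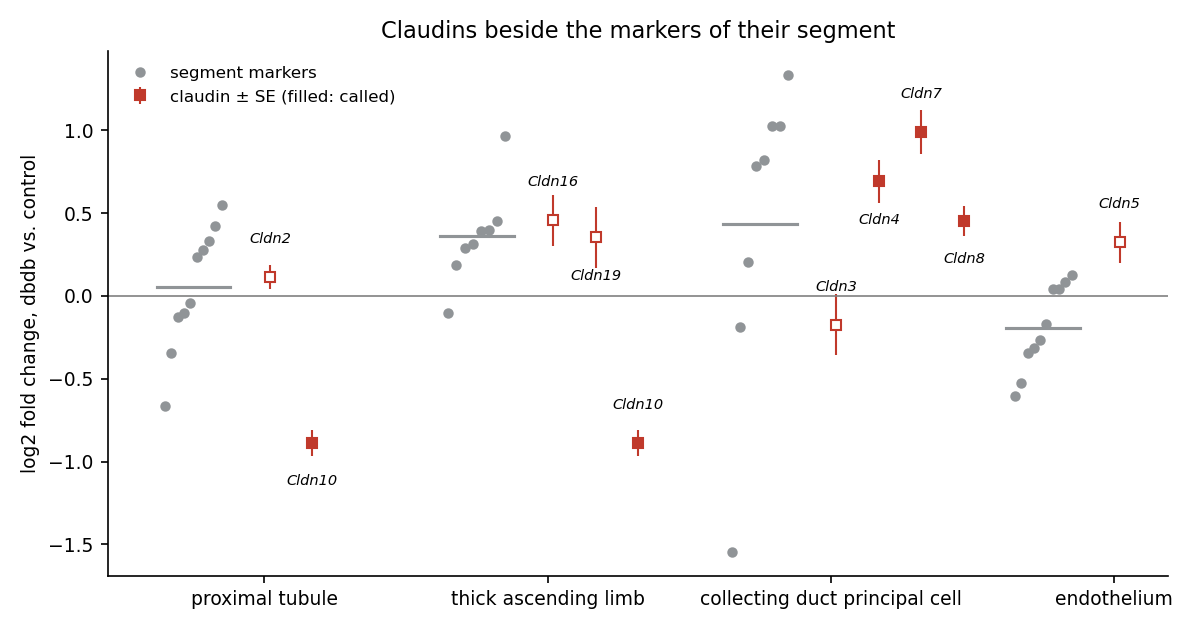
Log2 fold change in dbdb vs. control of segment markers (grey points, with a grey line at their mean) and of the claudins of that segment (squares with SE, filled where the adjusted p is under 0.05). Cldn10, shown beside both of its segments, lies at -0.89, below every marker point of both, and Cldn16, Cldn19 and Cldn2 lie within the range of theirs.

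In dbR vs. dbdb, which asks what rosiglitazone changed in the diabetic cortex, none of the 10 claudins was called by limma, while the unadjusted p was under 0.05 for 2 of 10 claudins and for 17.5% of all genes. Over all genes 0.743% were called, 82 higher and 26 lower in dbR, but these 108 calls became 2 without dbR replicate 2, 10 without dbR replicate 3, 31 and 36 without dbdb replicates 2 and 1, 70 without dbR replicate 1, and 18 with no variance trend. The 2 claudins were Cldn1 and Cldn10, and both were higher in dbR without overlap between the groups. Cldn1 was 1.35 times the dbdb level (log2 fold change 0.44, SE 0.084, adjusted p = 0.0516), and Cldn10 was 1.30 times the dbdb level (log2 fold change 0.38, SE 0.077, adjusted p = 0.0552). Both adjusted p lie close to the threshold, and both genes passed it with a minimum mean of 1 FPKM (0.0429 and 0.0482) or with 75th percentile scaling (0.0352 and 0.0406). Cldn1 also passed it without control replicate 1 (0.0423) or control replicate 3 (0.0464). The share of higher genes among all calls was 75.9%, and 48.6% with mitochondrial genes left out.

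Of the tubule markers 2 were called in dbR vs. dbdb, where 0.743% of all genes were. None of the 10 proximal tubule, 8 thick ascending limb and 6 distal convoluted tubule markers was called, while Fxyd4 (log2 fold change 0.64) was called higher among the 8 principal cell markers and Atp6v1g3 (0.52) among the 7 intercalated cell markers. With each of 9 libraries left out Fxyd4 was called 2 times and Atp6v1g3 5 times, and neither without dbR replicate 2 or 3 or dbdb replicate 1 or 2. At an unadjusted p under 0.05 the counts for these first 3 lists were 1, 2 and 2, beside 17.5% of all genes. Relative to proximal tubule markers, in the comparison chosen after seeing the data, Cldn10 was higher by 0.31 in dbR than in dbdb libraries and Cldn10a by 0.33, both without overlap (exact permutation p = 0.1 each). Relative to thick ascending limb markers Cldn10 differed by 0.21 (exact permutation p = 0.3) and Cldn10b by 0.02 (exact permutation p = 0.8), both with overlap. Relative to proximal tubule markers Cldn2 differed by -0.16 (exact permutation p = 0.4). Relative to principal cell markers Cldn3 differed by -0.33, Cldn4 by -0.13, Cldn7 by -0.32 and Cldn8 by 0.04, each with overlap (exact permutation p = 0.2, 0.4, 0.2 and 1), and Cldn8 by -0.20 with the median of the markers. The values of Cldn3, Cldn4 and Cldn7 were further below 0 with that median (below).

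The groups did not overlap in 3 of 10 claudins in dbR vs. dbdb, which are Cldn1, Cldn10 and Cldn5, and in 22.7% of all genes tested. Cldn5 was lower in each dbR library (log2 fold change -0.23, SE 0.12, limma adjusted p = 0.370), while 3 of 10 endothelial markers, Kdr, Emcn and Tek, were called higher and the summed endothelial level was 169 to 191 FPKM in dbR. With each of 9 libraries left out Emcn was called 6 times, Kdr 5 times and Tek 0 times, and none of them without dbR replicate 2 or 3. Relative to these markers Cldn5 differed by -0.54 between dbR and dbdb libraries, without overlap (exact p = 0.1). The remaining log2 fold changes lay between -0.27 for Cldn3 and 0.11 for Cldn16, with -0.25 for Cldn7 (adjusted p = 0.361), 0.10 for Cldn8 (adjusted p = 0.610) and -0.07 for Cldn4 (adjusted p = 0.829).

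Of the Cldn10 forms, Cldn10a differed by 0.39 between dbR and dbdb (SE 0.082, limma adjusted p = 0.163) and Cldn10b by 0.19 (SE 0.067, adjusted p = 0.376), neither being called among transcripts of which 0.0170% were called. Each dbR value of both forms exceeded each dbdb value. The log2 ratio of Cldn10a to Cldn10b differed by 0.20 (exact permutation p = 0.2), with overlap. The Cldn10b values of the dbR libraries lay within or next to the control range, whereas the Cldn10a values of the dbR libraries lay below it.

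In dbR vs. control, which sets treated diabetic mice beside the non-diabetic control mice, 6 of 10 claudins were called, and 24.1% of all genes tested. The groups did not overlap in the same 6 of 10 claudins and in 41.9% of all genes. Higher were Cldn7 (log2 fold change 0.74, SE 0.13, limma adjusted p = 0.00331), Cldn4 (0.62, SE 0.13, adjusted p = 0.00658), Cldn16 (0.57, SE 0.15, adjusted p = 0.0225), Cldn8 (0.55, SE 0.090, adjusted p = 0.00199) and Cldn1 (0.38, SE 0.084, adjusted p = 0.00913). Cldn10 fell by 0.51 (SE 0.077, adjusted p = 0.00137), to 0.704 of the control level. Cldn19 (0.46, adjusted p = 0.0998), Cldn5 (0.09), Cldn2 (0.02) and Cldn3 (-0.44, adjusted p = 0.108) were not called. Among all calls 51.1% were higher, against 70.5% with mitochondrial genes left out and 61.9% with 75th percentile scaling.

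The Cldn16 call in dbR vs. control rested on single libraries. It was lost without control replicate 2 (adjusted p = 0.0768), control replicate 3 (0.0503), dbR replicate 1 (0.0693) or dbR replicate 2 (0.0756), and with the transcript of highest FPKM alone (0.367). With that transcript alone the Cldn7 call was lost too (0.144). Cldn3 was called without control replicate 2 (0.0347) and Cldn19 without control replicate 1 (0.0392). Among the markers 7 of 8 thick ascending limb markers rose in dbR vs. control, with a summed level of 841 to 969 FPKM in dbR libraries. Relative to those markers Cldn16 differed by 0.03 (exact permutation p = 0.8), and by -0.12 with their median. Relative to principal cell markers Cldn4 differed by 0.13, Cldn7 by 0.24 and Cldn8 by 0.06, with overlap (exact permutation p = 0.4, 0.2 and 0.8), and Cldn3 by -0.94 without overlap (exact permutation p = 0.1). With the median of the markers the values of Cldn4, Cldn7 and Cldn8 were larger and that of Cldn3 was nearer to 0 (below). For the other groups of markers the calls in dbR vs. control, beside 24.1% of all genes, were 6 higher and 1 lower of 8 for principal cells, 5 of 6 higher for the distal convoluted tubule, 7 of 7 higher for intercalated cells, 3 higher and 1 lower of 10 for the proximal tubule, 3 of 10 higher for endothelium, 2 of 6 higher for podocytes, 1 of 6 lower for leukocytes and none of 3 for urothelium and 2 for adipocytes.

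The calls of the Cldn10 transcripts differed in the same comparison. Cldn10a fell by 0.53 on the log2 scale (SE 0.082, limma adjusted p = 0.00633), while Cldn10b differed by -0.01 (SE 0.067, adjusted p = 0.967). The share of transcripts called was 8.50% in dbR vs. control and 9.57% in dbdb vs. control, and in the latter 2 claudin transcripts of genes with several transcripts were called, Cldn10a and the main Cldn7 transcript. The log2 ratio of Cldn10a to Cldn10b differed by -0.52 between dbR and control libraries, without overlap (exact permutation p = 0.1). The comparisons share libraries, so the values of dbR vs. dbdb and dbR vs. control are not independent of those of dbdb vs. control.

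**Figure D5:**
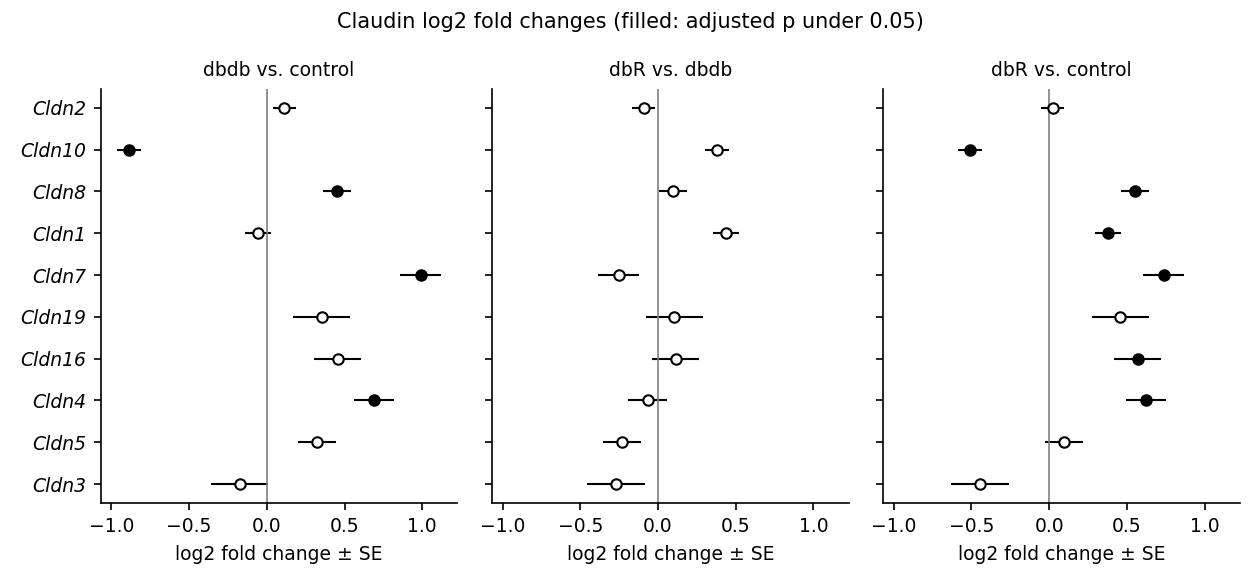
Log2 fold change with SE of each claudin gene in the 3 comparisons, with filled points where the limma adjusted p is under 0.05. In dbdb vs. control Cldn4, Cldn7 and Cldn8 lie to the right of 0 and Cldn10 at -0.89, no point is filled in dbR vs. dbdb, and 6 are filled in dbR vs. control.

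Claudins work together with scaffold and adhesion proteins of the tight junction, and of 23 such partners 2 rose and 2 fell in dbdb vs. control, where 26.4% of all genes were called. With mitochondrial genes left out 6 partners were called higher and 0 lower. Those that rose were Ildr1 (log2 fold change 0.71, limma adjusted p = 0.00353), which marks the corners where cells meet, and Tjp3 (0.66, adjusted p = 0.00548), the scaffold ZO-3. Those that fell were Cgnl1 (-0.33, adjusted p = 0.00144), a cytoplasmic linker of the junction, and Mpp5 (-0.26, adjusted p = 0.00824), the polarity protein Pals1. The median over the partners was 0.02. In dbR vs. dbdb none of the 23 was called by limma and for 4 the unadjusted p was under 0.05, as it was for 17.5% of all genes. In dbR vs. control, where 24.1% of all genes were called, 6 rose, Ildr1, Tjp3, Jam3, Magi1, Tjp1 and F11r, and 2 fell, Mpp5 and Marveld2. Without control replicate 3 or without dbR replicate 2 only 3 were called higher and 1 lower.

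Of 14 regulators of claudin genes and proteins 8 rose and 1 fell in dbdb vs. control, where 26.4% of all genes were called, and their median log2 fold change was 0.43. The kinases Wnk4 (0.86, limma adjusted p = 4.98e-04) and Wnk1 (0.45, adjusted p = 0.00270), which phosphorylate claudins, rose, as did Klhl3 (0.79, adjusted p = 1.30e-04), the adaptor of a ubiquitin ligase that acts on WNK kinases and claudin 8. The epithelial transcription factors Tfcp2l1 (0.82), Grhl2 (0.76) and Elf3 (0.56) rose, along with the splicing factor Esrp1 (0.42). Of the membrane proteases St14 rose (0.96, adjusted p = 3.16e-04) and Prss8 fell (-0.35, adjusted p = 0.0191), while no regulator was called lower without control replicate 1 or control replicate 3. In dbR vs. dbdb only Elf3 was called, and it fell by 0.57 (adjusted p = 0.0389), a call that was lost whenever a library was left out. In dbR vs. control, with 24.1% of all genes called, 7 of 14 rose and Cul3 fell (-0.19, adjusted p = 0.0275). No regulator was called lower in that comparison with 75th percentile scaling, with mitochondrial genes left out, with only the 6 libraries, with no variance trend, or without control replicate 1 or 2 or dbR replicate 2 or 3. Markers of the distal segments rose in the same libraries (above), and their part in these changes was not tested.

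Annotated lncRNAs within 100 kb of these claudins were Gm12898, which lies 30599 bases from Cldn19, Gm12927, which overlaps Cldn19 on the opposite strand, and Abhd11os, which lies 24642 bases from Cldn3 and 65180 bases from Cldn4. None of the 3 was called by limma in any comparison, where 8.74% of 2013 lncRNA genes were called in dbdb vs. control, 0 in dbR vs. dbdb (155 with an unadjusted p below 0.05) and 8.05% in dbR vs. control. Abhd11os had FPKM of 4.31, 3.49 and 3.72 in control, 1.55, 2.62 and 2.74 in dbdb and 2.44, 3.41 and 2.77 in dbR libraries. Its dbdb values lay below its control values without overlap (log2 fold change -0.75, unadjusted p = 0.00802, adjusted p = 0.0735), and it was the only one of the 3 with an unadjusted p under 0.05. Gm12927 was listed at 0 in 3 of 9 libraries and varied widely (SE 1.22 on the log2 scale). How the quantification treated strand is not given in the sources used here, so reads of Gm12927 and Cldn19 may not have been told apart.

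For 5 of the claudins called in a comparison, the genes with the most similar profile over the 9 libraries were sought among 11615 genes with a mean of at least 1 FPKM, by the root-mean-square difference of centred log2 values. The closest gene to Cldn7 was Ephx1 at 0.042, against a spread of Cldn7 itself of 0.45, followed by Cdkn1c (0.083) and Tmtc1 (0.095). For Cldn10 they were Mme (0.099), Pop1 (0.10) and Adgrl2 (0.10), against a spread of 0.37. For Cldn8 they were Wnk1 (0.061), one of the regulators above, Nampt (0.078) and Tmem52b (0.079). For Cldn16 they were Gulp1 (0.092), Bsnd (0.098), a marker of the thick ascending limb, and Fry (0.10). For Cldn1 they were Snapc5, Akap12 and Rcsd1 (0.078 to 0.083). These are descriptions over libraries of 3 groups, with no test.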

How the data were processed

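Cortical RNA of 9 mice was sequenced, 3 each of control, dbdb and dbR as grouped by the sample labels. Ribosomal RNA was removed and strand-specific libraries were sequenced as pairs. The submitters' processing notes name TopHat2 2.0.9, Cufflinks 2.1.1 and GRCm38.p2. The authors deposited FPKM values by transcript and library, which Cufflinks had divided by length and mapped fragments, for mRNAs, annotated lncRNAs and lncRNAs they had assembled. FPKM hold no counts, so no count test was used, and depth was estimated from the steps between low values. The strand setting of the quantification is not given in the sources used here.

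mRNA FPKM were summed per gene. Genes with a mean of at least 0.1 FPKM were fitted as log2(FPKM + 0.1) with limma 3.58.1 (R 4.3.3), with a variance trend and 1 model for the 3 groups of 9 libraries. Tests are two-sided, with Benjamini-Hochberg adjustment over all genes, or over all transcripts or all lncRNA genes where these were fitted. Fold changes on this scale understate those of low genes. Each mouse gave 1 library, and p-values measure the spread between mice. As a check of the code alone, the fit was also run on simulated data with known changes. Values within libraries were compared by exact permutation tests. Positions are from GENCODE M21 and promoter windows from RefSeq, both on GRCm38.p6. Python 3.11.15, numpy 2.4.6, pandas 2.3.3 and matplotlib 3.10.9 were used.

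The members and the lists (other claudins, tight junction partners, claudin regulators, and markers of the proximal tubule, thick ascending limb, distal convoluted tubule, principal cell, intercalated cell, podocyte, endothelium, leukocyte, urothelium and adipocyte) were chosen with earlier results of these data known. Named are the 10 claudins, other claudins with a mean of at least 1 FPKM, list genes called in a comparison and the leading marker of a segment, claudin transcripts and lncRNAs within 100 kb with a mean of at least 0.1 FPKM, Lepr, and the 3 genes closest in profile to each called claudin, of which those for Cldn4 are not reported here. Cldn18 was named after its values were seen. Alternatives were no filter, a minimum mean of 1 FPKM, a pseudocount of 1 or 0.01, 75th percentile scaling, quantile normalization, mitochondrial genes left out, only the 6 libraries of a comparison, no variance trend, mRNA and lncRNA genes together, the transcript of highest FPKM, a replicate block and each library left out. Replicate numbers were not taken to pair the mice: same-numbered libraries had correlations of their deviations between -0.195 and 0.0608. For libraries of different groups and numbers they lay between -0.11 and 0.206.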

Additional observations from a re-analysis of the deposited data

How the results depend on the processing

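Over the 10 claudins and 3 comparisons, 630 values were computed under 21 alternatives each, and 10 of them changed sign, 0 of these being a called value. The number of claudins called in dbdb vs. control was 4, 7 with mitochondrial genes left out and 5 with a minimum mean of 1 FPKM. It was 4 to 6 with each library left out (6 without control replicate 1). In dbR vs. dbdb it was 0, but 1 with a pseudocount of 1 or quantile normalization, 2 with a minimum mean of 1 FPKM or 75th percentile scaling, and 0 to 1 with each library left out (1 without control replicate 1 or 3). In dbR vs. control it was 6, with 7 under quantile normalization, 4 with the transcript of highest FPKM and 5 to 7 with each library left out. The replicate block gave 7, 0 and 4 in dbR vs. control, dbR vs. dbdb and dbdb vs. control, the additional call under the block being Cldn3 (adjusted p = 0.0479). The replicate numbers were not taken to pair the mice.

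Over all genes, 108 were called in dbR vs. dbdb, and this number depended most on the setting: 31 with no filter, 166 with a minimum mean of 1 FPKM, 224 with 75th percentile scaling, 234 with quantile normalization, 22 with only the 6 libraries, 18 with no variance trend, 23 with the replicate block and 66 with lncRNA genes added. With each library left out it was 2 (without dbR replicate 2) to 141. It was 10 without dbR replicate 3, 31 and 36 without dbdb replicates 2 and 1, and 70 without dbR replicate 1. Of claudin genes with several transcripts 2 transcripts were called in dbdb vs. control, and 1 with the replicate block, with 1 to 2 when each library was left out (1 without control replicate 3, any dbdb replicate or dbR replicate 2). Without control replicate 2 the count was 2, since ENSMUST00000108597 of Cldn7 gained a call (adjusted p = 0.0394) as ENSMUST00000018713 lost it. Of the partners in dbR vs. dbdb 2 were called with 75th percentile scaling. In dbR vs. control 4 to 8 partners were called with each library left out, the lowest counts without control replicate 2 or 3 or dbR replicate 2 or 3. Elf3 was the single regulator called in dbR vs. dbdb, and 0 were called with no filter, only the 6 libraries, no variance trend, the replicate block, lncRNA genes added or any library left out (0 to 0).

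Differences relative to segment markers moved when the median of the markers replaced their mean. Values are given as those with the mean and then the median. In dbdb vs. control they were 0.06 and -0.12 for Cldn2, -0.61 and -0.12 for Cldn3, 0.26 and 0.74 for Cldn4, 0.56 and 1.04 for Cldn7 (0.43 with a pseudocount of 1), 0.02 and 0.51 for Cldn8, and, for the comparisons chosen after seeing the data, -0.94 and -1.12 for Cldn10 and -0.98 and -1.16 for Cldn10a against proximal tubule markers. In dbR vs. dbdb they were -0.33 and -0.57 for Cldn3, -0.13 and -0.37 for Cldn4, -0.32 and -0.55 for Cldn7 and 0.04 and -0.20 for Cldn8. In dbR vs. control they were -0.10 and -0.27 for Cldn2, -1.04 and -1.19 for Cldn10 and 0.03 and -0.12 for Cldn16 against the thick ascending limb, -0.94 and -0.69 for Cldn3, 0.13 and 0.37 for Cldn4, 0.24 and 0.49 for Cldn7, 0.06 and 0.30 for Cldn8, -0.03 and -0.25 for Cldn5, -0.63 and -0.80 for Cldn10 and -0.65 and -0.82 for Cldn10a against the proximal tubule, and -0.54 and -0.69 for Cldn10b. Except for the averaging of the markers, the cause of these moves was not tested. With an estimated 51.9 to 103 fragments for Cldn3 and 79.8 to 168 for Cldn16, depth limits what can be seen for the low claudins.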

Other observations

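From a list of 19 other claudins, 17 were found in the files, 8 of them with a mean of at least 0.1 FPKM and 2 with a mean of at least 1 FPKM. Of these 8, 2 were called in dbdb vs. control, where 26.4% of all genes were, and 2 in dbR vs. control, where 24.1% were. Both counts include Cldn18, which passed the filter through its control libraries. In dbR vs. dbdb none was called by limma, and none had an unadjusted p under 0.05. Cldn12 had means of 36.1 ± 2.46, 32.7 ± 3.71 and 32.8 ± 1.73 FPKM (SD, n = 3) in control, dbdb and dbR libraries, above Cldn8, and was not called (log2 fold change -0.15, limma adjusted p = 0.253 in dbdb vs. control). Cldn15, which forms a cation pore in the intestine, had FPKM of 2.47, 2.85 and 3.10 in control, 4.52, 4.67 and 3.58 in dbdb and 3.61, 4.24 and 3.91 in dbR libraries. Each value of the homozygous mice exceeded each control value. Cldn15 rose by 0.58 on the log2 scale in dbdb vs. control (adjusted p = 0.00849) and by 0.47 in dbR vs. control (adjusted p = 0.0236). Cldn18 was near the floor, at 0.637, 0.315 and 0.748 FPKM in control, 0.196, 0.10 and 0 in dbdb and 0.0309, 0.0227 and 0.0497 in dbR libraries. It was the other claudin called, lower in both comparisons with control, but it passed the filter on low values through its control libraries, so no fold change or p is given. Its values rest on an estimated 0 to 45.0 fragments per library.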
